A study of Mus musculus with 30 samples.

Results

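The comparison described here set naive mouse embryonic stem cells with the GRHL2-ERT transgene against cells without it after both had received tamoxifen for 8 h. Its members are the 6 libraries, of 30 in the series, whose labels give a Kmt2c knockout, floxed Kmt2d alleles (written Kmtd fl/fl), and tamoxifen for 8 h. Of these, 3 carry GRHL2-ERT (genotype Kmt2cKO; Kmtd fl/fl;GRHL2-ERT) and 3 do not (Kmt2cKO; Kmtd fl/fl), and 12414 of the 12428 genes in the table were tested. All 6 libraries therefore share the Kmt2c knockout, the floxed Kmt2d alleles, the C57BL/6J x 129 background, the drug and a medium in which serum and LIF were supplemented with inhibitors of MEK and GSK3. The study as a whole asked how KMT2C and KMT2D bear on enhancer activation by GRHL2, and it also holds GRHL2-ERT cells in ethanol, Kmt2c/Kmt2d double-KO cells and a time of 16 h. The GRHL2-ERT lines were clones picked after transposition for similar amounts of GRHL2, and the labels do not say that the transgene-free line went through the same cloning. In this comparison the activity of GRHL2 and any other difference between the lines cannot be told apart, so values of GRHL2-ERT cells kept in ethanol for 8 h are given beside the main ones for many of the genes. The labels do not say whether the 3 libraries of a group came from separate cultures, so the p-values speak only of variation among these libraries.

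GRHL2 is a transcription factor of the grainyhead family that binds and opens enhancers of epithelial genes, among them genes of tight junctions, desmosomes and cell adhesion, and it is known to oppose the mesenchymal regulator Zeb1. Naive embryonic stem cells, which correspond to the epiblast of the blastocyst before implantation, express little Grhl2, and the gene becomes active as cells leave that state. Fused to a modified ligand-binding domain of the estrogen receptor, GRHL2 stays outside the nucleus until tamoxifen is given. KMT2C and KMT2D are related methyltransferases that place monomethylation on lysine 4 of histone H3 at enhancers.

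Levels are counts of tags near the 3' ends of transcripts, scaled to a common library total (CPM). They were calculated from the deposited log2 values, and per-gene means carry the SD over 3 libraries. The 6 libraries held 15.0 to 21.8 M reads over the genes of the table, so that 3 reads stood for 0.138 to 0.1999 CPM, and the ribosomal transcript Rn45s took 3.10% to 3.74% of the reads. In the 3 ethanol libraries of 8 h, Rn45s was higher, at 5.39%, 4.02% and 7.40% of the reads (tamoxifen over ethanol -0.73, limma adjusted p = 0.039), and its part in comparisons with ethanol cells was not tested. Pairs of libraries correlated at 0.985 to 0.989 within the GRHL2-ERT tamoxifen group, at 0.987 to 0.988 within the transgene-free group and at 0.977 to 0.982 between these groups. Defining markers of naive stem cells were abundant: the 10 fixed ones summed to 2159 to 2276 CPM in GRHL2-ERT tamoxifen cells, 2720 to 3050 CPM in GRHL2-ERT ethanol cells and 2692 to 2938 CPM in transgene-free tamoxifen cells. Fibroblast markers of a feeder layer, summed over the 3 of 7 that the table lists, stayed at or under 0.656 CPM with GRHL2-ERT and tamoxifen. They summed to 0.551 to 2.44 CPM with GRHL2-ERT and ethanol, and to 0.484 to 1.85 CPM without the transgene. Of the primitive endoderm and trophoblast markers, Sox17, Sox7, Cdx2, Elf5 and Hand1 were not among the listed genes.

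The transgene itself was read first. Grhl2 (mm10 chromosome 15, 37233036 to 37363569) had 162, 159 and 189 CPM in GRHL2-ERT tamoxifen libraries and 210, 158 and 165 CPM in GRHL2-ERT ethanol libraries, against 1.90, 3.55 and 2.53 CPM in transgene-free tamoxifen libraries. The transgene-bearing libraries lay far above the rest with either treatment. The log2 fold change with tamoxifen, on the log2(CPM + 1) scale used for every fold change below, was 5.57 ± 0.25 (SE, limma over all genes, adjusted p = 3.3e-14). Esr1 (mm10 chromosome 10, 4611593 to 5005614), whose ligand-binding domain gives the fusion its tamoxifen switch, had 56.8, 62.8 and 41.0 CPM with GRHL2-ERT and tamoxifen and 15.5, 51.9 and 26.2 CPM with GRHL2-ERT and ethanol, against 3.85, 3.15 and 3.18 CPM without the transgene. Its log2 fold change was 3.62 ± 0.47 (limma, adjusted p = 2.6e-05). Whether Esr1 tags came from the fusion or from the gene itself was not tested. Both groups are Kmt2c knockouts, so Kmt2c tags, which are read near the 3' end and may lie outside the deleted part, check no label. They were nonetheless higher with GRHL2-ERT and tamoxifen, at 26.8 ± 5.6 CPM, with 19.6 ± 3.9 CPM in ethanol, against 15.7 ± 2.4 CPM without the transgene (log2 fold change 0.73, limma adjusted p = 0.0053), a call lost without GRHL2-ERT replicate 2 (adjusted p = 0.0717) or transgene-free replicate 3 (adjusted p = 0.0532). Kmt2d had 11.5 ± 2.4 CPM with GRHL2-ERT and tamoxifen and 10.0 ± 3.1 CPM without the transgene, with overlapping groups and an adjusted p of 0.83 in limma. In GRHL2-ERT ethanol cells it had 18.2 ± 4.5 CPM. Neither tamoxifen over ethanol (-0.61) nor ethanol over transgene-free cells (0.82) was called for Kmt2d.

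Across all genes, 332 were higher (2.67% of those tested) and 173 lower (1.39%) in GRHL2-ERT tamoxifen cells at an adjusted p under 0.05 in limma, or 4.07% together. Counts of called genes in the lists below are to be read beside these shares. Epithelial genes, Wnt7b and the X-linked homeobox genes Rhox6 and Rhox9 stood among the increases, and regulators of pluripotency, Cdh2 and Zeb1 among the decreases. Increases were also the larger: 160 genes (1.29%) were higher by at least 1 on the log2 scale and 46 (0.371%) lower by as much, while the median over all tested genes was -0.00. Libraries of the groups did not overlap for 3026 genes (24.4%). Calls numbered 295 without GRHL2-ERT replicate 2, 336 without GRHL2-ERT replicate 3 and 333 without transgene-free replicate 1, and between 344 and 351 without any of the other 3 libraries. Estimating the spread from these 6 libraries alone gave 977 calls, and leaving the 3 double-KO tamoxifen libraries out of the shared estimate, a choice made after the data were seen, gave 817. The naive marker sums given above were lower in each GRHL2-ERT tamoxifen library than in every other library of 8 h shown, and their part in these counts was not tested.

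**Figure D1:**
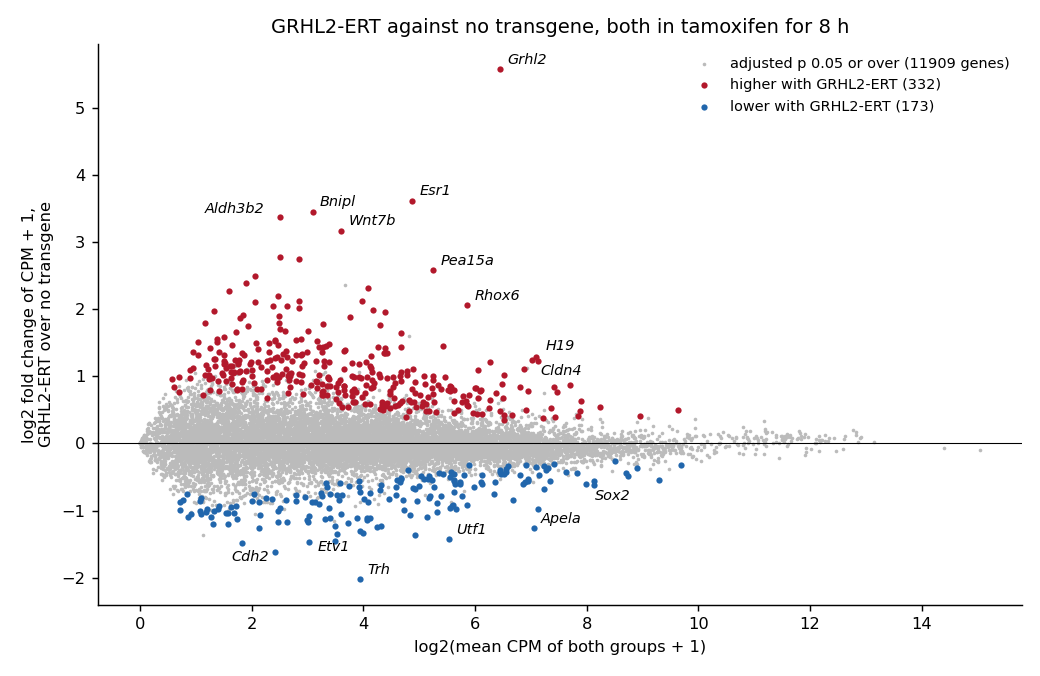
Each point is 1 of 12414 tested genes. The x axis is the log2 of the mean CPM of both groups plus 1, and the y axis is the log2 fold change of GRHL2-ERT over transgene-free cells, both in tamoxifen for 8 h. The 332 higher genes reach 5.57 at Grhl2, and the 173 lower genes reach -2.02 at Trh.

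Behind Grhl2 and Esr1, the largest increases among the named genes were in Bnipl, Aldh3b2 and Wnt7b. None of them exceeded 1.85 CPM in an ethanol or transgene-free library of 8 h. Bnipl (mm10 chromosome 3, 95241271 to 95251193) had 12.5, 16.0 and 15.5 CPM in GRHL2-ERT tamoxifen libraries and 0.0595, 1.47 and 1.30 CPM in GRHL2-ERT ethanol libraries, against 0.264, 0.197 and 0.915 CPM in transgene-free libraries (log2 fold change 3.45 ± 0.28). Aldh3b2, an aldehyde dehydrogenase gene (mm10 chromosome 19, 3972328 to 3981646), had 8.96, 10.5 and 8.77 CPM with GRHL2-ERT and tamoxifen and 0 in all 6 of the ethanol and transgene-free libraries. Set against a floor of 3 reads per transgene-free library (0.172 CPM), it was at least 54.6-fold higher. Wnt7b, which encodes a secreted WNT ligand (mm10 chromosome 15, 85535437 to 85582473), had 20.2, 17.6 and 24.6 CPM with GRHL2-ERT and tamoxifen and 1.13, 1.22 and 1.54 CPM in ethanol, against 1.85, 1.71 and 0.807 CPM without the transgene (log2 fold change 3.17 ± 0.24). In all of them the GRHL2-ERT tamoxifen libraries stood alone, and the ethanol libraries lay in or near the transgene-free range. Adjusted p in limma was 1.4e-09 for Bnipl, 1.8e-12 for Aldh3b2 and 4.9e-10 for Wnt7b. Wnt7b was the 1 called gene among 15 tested genes of a WNT target and pathway list, whose median was -0.05.

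Tmem54, a transmembrane protein gene (mm10 chromosome 4, 129105548 to 129111626), had 9.57, 11.3 and 13.8 CPM with GRHL2-ERT and tamoxifen and 0.178, 0.429 and 0.892 CPM in ethanol, against 1.16, 1.05 and 0.431 CPM without the transgene. Its log2 fold change was 2.75 ± 0.25 (limma adjusted p = 1.2e-08), and no GRHL2-ERT tamoxifen library came near the other 6 libraries. Pea15a, which encodes a small phosphoprotein that binds ERK, started from a higher level: 55.9, 59.8 and 76.9 CPM with GRHL2-ERT and tamoxifen, 9.99, 10.96 and 10.1 CPM in ethanol, and 7.71, 11.04 and 11.04 CPM without the transgene (log2 fold change 2.58, adjusted p = 1.3e-09). Other genes of the 14 largest increases were Ppl, Il17re, Eps8l2, Epn3, Hsbp1l1 and Acsl5, with log2 fold changes of 2.12 (Acsl5, a fatty acid CoA ligase) to 2.49 (Ppl, the plakin periplakin). In Epn3, an epsin of the endocytic machinery, the 3.33, 3.38 and 5.31 CPM of GRHL2-ERT tamoxifen libraries stood against 0, 0.0657 and 0 CPM without the transgene. For the increases named here beyond Grhl2 and Esr1, the ethanol and transgene-free cells differed by at most 0.43 on the log2 scale, and no such difference was called.

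**Figure D2:**
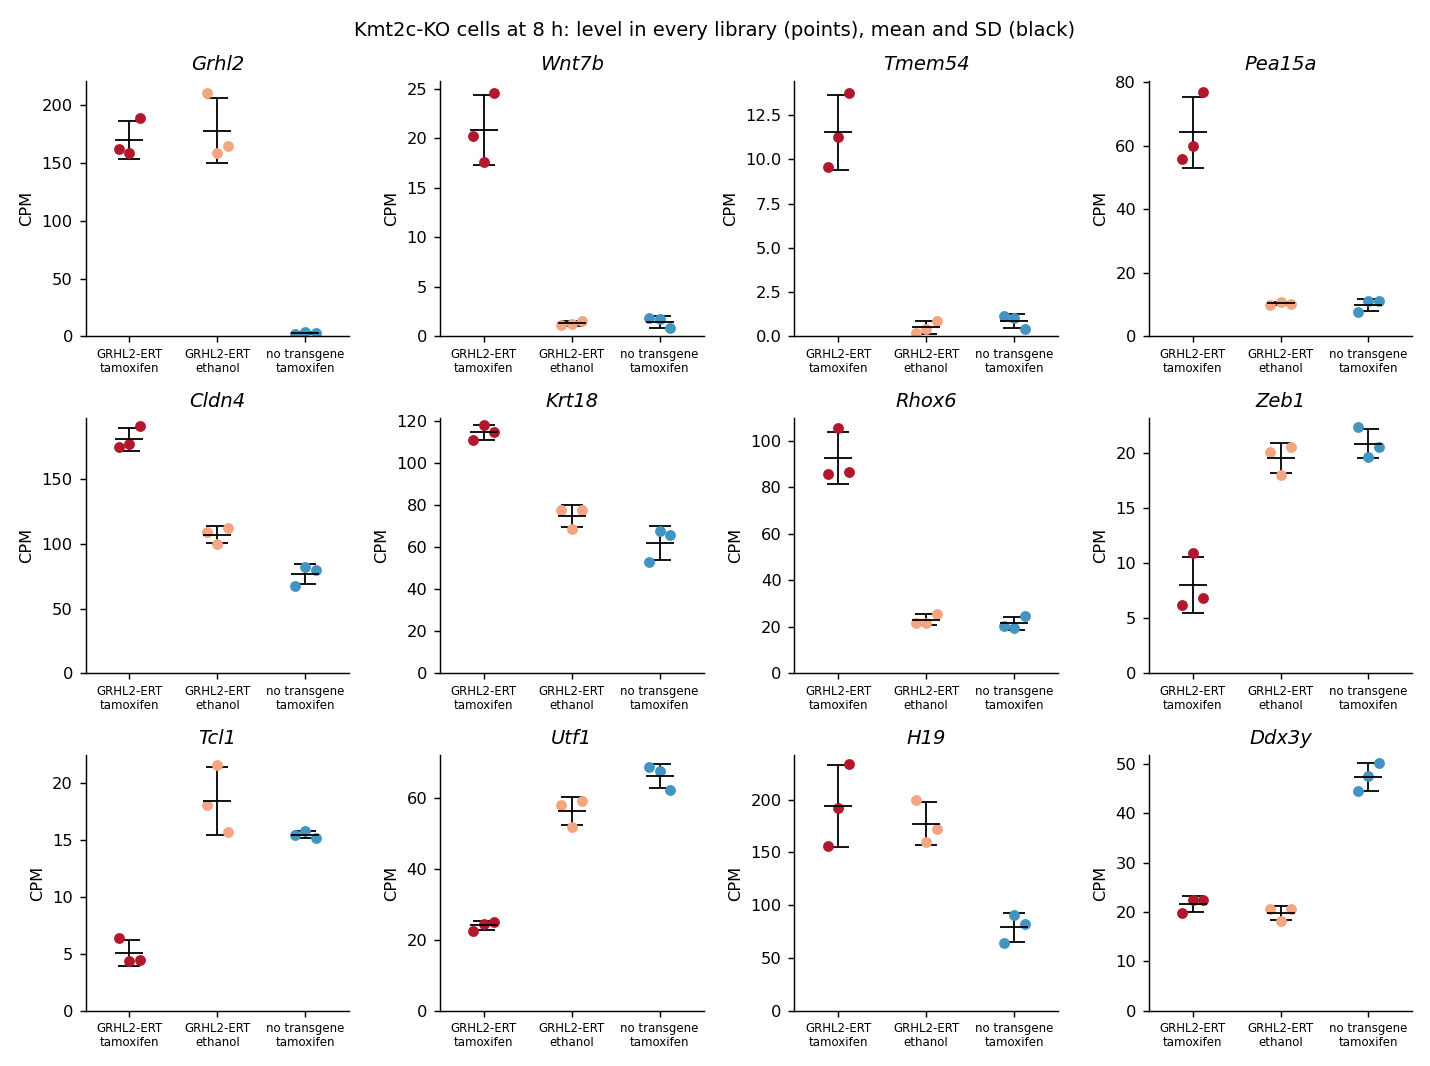
Levels of 12 genes in CPM, on a linear axis from 0, in every Kmt2c-KO library at 8 h (points), with the mean and SD of each group in black. GRHL2-ERT tamoxifen cells are at the left, GRHL2-ERT ethanol cells in the middle and transgene-free tamoxifen cells at the right. Wnt7b, Tmem54, Pea15a and Rhox6 are high and Tcl1 and Zeb1 low in the left group alone, while both GRHL2-ERT groups lie high for Grhl2 and H19 and low for Ddx3y.

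Of 40 tested genes on a list of known GRHL2 targets and epithelial genes, 15 were higher, none was lower and 25 did not pass the test, with a median log2 fold change of 0.74. Esrp1, an epithelial splicing regulator, averaged 27.7 ± 1.1 CPM in GRHL2-ERT tamoxifen cells and 5.85 ± 1.7 CPM in GRHL2-ERT ethanol cells, against 6.28 ± 0.98 CPM in transgene-free cells (log2 fold change 1.99, limma adjusted p = 1.4e-05). Epcam, an adhesion molecule of epithelia, averaged 81.4 ± 5.3 CPM with GRHL2-ERT and tamoxifen and 47.6 ± 6.9 CPM in ethanol, against 45.7 ± 1.7 CPM without the transgene (log2 fold change 0.82, adjusted p = 0.0006). St14, Rab25 and Mal2, which encode a membrane protease, an apical trafficking GTPase and an apical membrane protein, were higher by 0.85, 1.02 and 0.93, and each lost its call without any of at least 4 of the 6 libraries. Cdh1, which encodes E-cadherin, was already abundant: it averaged 247 ± 12 CPM with GRHL2-ERT and tamoxifen and 238 ± 27 CPM in ethanol, against 190 ± 23 CPM without the transgene, and did not pass the test (adjusted p = 0.11). The family member Grhl1 (3.11 ± 1.3 CPM with GRHL2-ERT and tamoxifen, 2.12 ± 0.66 CPM without the transgene) did not pass it, nor did Grhl3 (2.22 ± 1.2 CPM with GRHL2-ERT and tamoxifen, 1.76 ± 1.6 CPM without the transgene). In GRHL2-ERT ethanol cells against transgene-free cells the median of the list was -0.04, with none called.

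Of 26 tested tight junction and polarity genes, 7 were higher, none was lower and 19 did not pass the test (median 0.35). Cldn4, a claudin, had 175, 177 and 191 CPM in GRHL2-ERT tamoxifen libraries and 109, 100 and 112 CPM in GRHL2-ERT ethanol libraries, against 67.7, 82.2 and 79.6 CPM in transgene-free libraries. For this gene the 3 groups separated in 3 steps, and the log2 fold change was 1.24 ± 0.13 (limma adjusted p = 3e-07), while the step between ethanol and transgene-free cells (0.49) was not called. Cldn6 had 37.1, 36.5 and 38.4 CPM with GRHL2-ERT and tamoxifen and 7.38, 13.8 and 9.33 CPM in ethanol, against 8.44, 15.6 and 10.7 CPM without the transgene (log2 fold change 1.65, adjusted p = 4e-05). Cgn, which encodes cingulin of the junction plaque, averaged 32.3 ± 9.9 CPM with GRHL2-ERT and tamoxifen, against 7.42 ± 1.6 CPM without the transgene (log2 fold change 1.96, adjusted p = 0.00077). Prkcz, the atypical kinase of the apical polarity complex, was higher by 1.00 ± 0.15 (adjusted p = 4.2e-05), and Cldn7, Marveld3 and F11r completed the called genes, of which Marveld3 and F11r lost their calls without single libraries. Ocln, which encodes occludin, had 1.21 ± 0.55 CPM with GRHL2-ERT and tamoxifen and 0.834 ± 0.25 CPM without the transgene, with overlapping groups.

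Desmosome and adherens junction genes gave 4 higher and 0 lower of 18 tested (median 0.28). The called genes were Ppl, the desmosomal plaque protein Dsp, the desmosomal cadherin Dsg2 and Perp, a desmosomal membrane protein first described as a p53 target. Dsp lost its call without any of 4 single libraries. Perp had 29.6, 28.0 and 31.5 CPM in GRHL2-ERT tamoxifen libraries and 10.8, 8.63 and 12.2 CPM in GRHL2-ERT ethanol libraries, against 10.7, 12.02 and 10.7 CPM in transgene-free libraries (log2 fold change 1.342 ± 0.16, limma adjusted p = 1.2e-06). On the list of p53 targets it was accompanied by a higher Btg2 (0.60) and a lower Pmaip1 (-0.74), each lost without 1 or another library, and 20 of 23 genes did not pass. Of 9 tested keratins, which form the intermediate filaments of epithelia, Krt7, Krt8, Krt18 and Krt19 were higher and none lower (median 0.64). Krt18 had 111, 118 and 115 CPM with GRHL2-ERT and tamoxifen and 77.9, 68.7 and 77.9 CPM in ethanol, against 52.8, 67.5 and 65.6 CPM without the transgene. Krt7 averaged 7.88 ± 1.8 CPM with GRHL2-ERT and tamoxifen, 5.53 ± 0.47 CPM in ethanol and 2.60 ± 0.31 CPM without the transgene, so that the ethanol mean lay between the others for this gene, with tamoxifen and ethanol libraries overlapping. Krt8 lost its call without GRHL2-ERT replicate 2 (adjusted p = 0.0624) or transgene-free replicate 1 (adjusted p = 0.102).

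Genes of smooth muscle actin filaments, many of which respond to serum response factor, held 4 higher and no lower genes of 17 tested (median 0.40). Tpm1, a tropomyosin, had 350, 340 and 376 CPM in GRHL2-ERT tamoxifen libraries and 221, 197 and 233 CPM in GRHL2-ERT ethanol libraries, against 219, 240 and 276 CPM in transgene-free libraries (log2 fold change 0.54, limma adjusted p = 0.00072). Acta2, Myl9 and Ankrd1 were the others, and each lost its call without 1 or more single libraries. Acta2 averaged 17.4 ± 5.6 CPM with GRHL2-ERT and tamoxifen and 14.5 ± 4.6 CPM in ethanol, against 8.41 ± 3.7 CPM without the transgene, and tamoxifen over ethanol was not called (0.25, adjusted p = 0.62). Of 17 basement membrane genes, the laminin chain Lamb1 alone was called, at 57.8 ± 3.5 CPM with GRHL2-ERT and tamoxifen, 38.1 ± 5.1 CPM in ethanol and 28.6 ± 3.7 CPM without the transgene (adjusted p = 0.00011).

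Of 16 tested mesenchymal genes, 4 were lower, none was higher and 12 did not pass the test (median -0.23). Zeb1, a repressor of epithelial genes (mm10 chromosome 18, 5591860 to 5775467), had 6.23, 10.9 and 6.88 CPM in GRHL2-ERT tamoxifen libraries and 20.05, 18.0 and 20.5 CPM in GRHL2-ERT ethanol libraries, against 22.3, 19.6 and 20.5 CPM in transgene-free libraries. Every GRHL2-ERT tamoxifen library lay below the other 6, and the log2 fold change was -1.31 ± 0.17 (limma adjusted p = 9.4e-06). Cdh2, which encodes N-cadherin, had 2.02, 1.13 and 1.66 CPM with GRHL2-ERT and tamoxifen and 4.40, 6.55 and 3.65 CPM in ethanol, against 7.23, 8.9995 and 5.06 CPM without the transgene (log2 fold change -1.62 ± 0.24, adjusted p = 5e-05). Ncam1, a neural cell adhesion molecule, fell to 24.9, 25.9 and 24.97 CPM with GRHL2-ERT and tamoxifen, against 57.5, 52.4 and 46.7 CPM without the transgene (log2 fold change -1.01, adjusted p = 2e-06). Vim, the intermediate filament gene vimentin, averaged 36.5 ± 4.9 CPM with GRHL2-ERT and tamoxifen, 46.8 ± 7.7 CPM in ethanol and 60.8 ± 8.9 CPM without the transgene, and lost its call without GRHL2-ERT replicate 2 (adjusted p = 0.057), GRHL2-ERT replicate 3 (adjusted p = 0.0718) or transgene-free replicate 1 (adjusted p = 0.0945).

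Of 29 naive pluripotency genes, 9 were lower, none was higher and 20 did not pass (median -0.25). Tcl1, a cofactor of AKT kinases and an early marker of the naive state (mm10 chromosome 12, 105216750 to 105222793), had 6.34, 4.38 and 4.43 CPM in GRHL2-ERT tamoxifen libraries and 18.0, 21.6 and 15.7 CPM in GRHL2-ERT ethanol libraries, against 15.4, 15.8 and 15.2 CPM in transgene-free libraries (log2 fold change -1.46 ± 0.18, limma adjusted p = 3.4e-06). Sox2, a core factor of pluripotency, had 197, 195 and 212 CPM with GRHL2-ERT and tamoxifen and 303, 299 and 278 CPM in ethanol, against 292, 313 and 312 CPM without the transgene (log2 fold change -0.60, adjusted p = 0.00026). Neither gene overlapped between the GRHL2-ERT tamoxifen libraries and the rest. Klf4, Klf5, Zfp42, Tdh, Lifr, Dppa2 and Zfp57 were the other 7 called genes, with log2 fold changes of -0.46 (Dppa2) to -1.19 (Zfp57, a zinc finger protein that guards imprints). Without 1 GRHL2-ERT library each, Lifr (adjusted p = 0.0676) and Zfp57 (adjusted p = 0.0769) lost their calls. Klf4 (adjusted p = 0.0668) and Zfp42 (adjusted p = 0.0529) lost their calls under median-of-ratios scaling and without any single library. Nanog averaged 361 CPM with GRHL2-ERT and tamoxifen and 390 CPM without the transgene (adjusted p = 0.95), and Pou5f1, which encodes OCT4, averaged 517 CPM with GRHL2-ERT and tamoxifen and 642 CPM without the transgene (adjusted p = 0.79). In bulk RNA, fewer cells that express a gene and less RNA of it per cell cannot be told apart.

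The genes of the formative and primed epiblast, the next stages of development, were mostly not called: 6 of 25 tested genes were lower and 1 was higher (median -0.44). Otx2, a homeobox factor that drives exit from the naive state, averaged 16.3 ± 2.0 CPM with GRHL2-ERT and tamoxifen, 9.53 ± 1.7 CPM in ethanol and 9.64 ± 1.4 CPM without the transgene (log2 fold change 0.70, limma adjusted p = 0.0081). Its call was lost without GRHL2-ERT replicate 2 (adjusted p = 0.066) or transgene-free replicate 1 (adjusted p = 0.0575). Utf1, a chromatin factor of pluripotent cells (mm10 chromosome 7, 139943789 to 139945112), fell to 22.6, 24.6 and 25.2 CPM in GRHL2-ERT tamoxifen libraries, with 58.2, 51.9 and 59.3 CPM in GRHL2-ERT ethanol libraries, against 68.9, 67.8 and 62.4 CPM in transgene-free libraries (log2 fold change -1.42 ± 0.13, adjusted p = 8.6e-09). The NODAL target Lefty2 and the methyltransferase cofactor Dnmt3l were lower by -0.97 and -0.85, and Zic2 and Foxp1 were others, each losing its call without 1 or more single libraries. Apela, which encodes a small hormone of early embryos, fell to 75.5, 78.4 and 77.5 CPM with GRHL2-ERT and tamoxifen, against 171, 189 and 202 CPM without the transgene (log2 fold change -1.27, adjusted p = 5.7e-09). Trh, the precursor of thyrotropin-releasing hormone, had the largest decrease, with 6.07, 3.91 and 5.35 CPM with GRHL2-ERT and tamoxifen and 17.4, 10.2 and 14.6 CPM in ethanol, against 22.9, 24.2 and 23.6 CPM without the transgene (log2 fold change -2.02 ± 0.23). Among feedback genes of the FGF and MAPK pathway, which the MEK inhibitor in the medium acts on in all groups, the ETS factor Etv1 was lower (-1.47 ± 0.19, adjusted p = 4.6e-06), Spry2 and Spred1 were lower and Ier3 was higher, of 16 tested. Spry2 lost its call without any of 5 libraries and Spred1 without transgene-free replicate 1 (adjusted p = 0.0506).

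Trophoblast genes gave 7 higher and 0 lower of 18 tested (median 0.30), although the defining factors Cdx2, Elf5 and Hand1 were not listed and Eomes and Gata3 were not called. The called genes were the homeobox genes Esx1, Dlx3, Rhox6 and Rhox9, the keratins Krt8 and Krt18, and Id2, an inhibitor of basic helix-loop-helix factors, whose call was lost without transgene-free replicate 1 (adjusted p = 0.0537). Rhox6 (mm10 chromosome X, 37826910 to 37829857) had 85.9, 105 and 86.5 CPM in GRHL2-ERT tamoxifen libraries and 21.7, 21.6 and 25.7 CPM in GRHL2-ERT ethanol libraries, against 20.6, 19.4 and 24.7 CPM in transgene-free libraries. That is a log2 fold change of 2.06 ± 0.16 (limma adjusted p = 1.4e-09), with the ethanol and transgene-free ranges overlapping. Rhox9 followed with 25.1, 24.9 and 21.7 CPM with GRHL2-ERT and tamoxifen, against 9.74, 6.93 and 10.98 CPM without the transgene (log2 fold change 1.30, adjusted p = 6.8e-05). These genes belong to a cluster of related copies on the X chromosome, and how the counting divided reads among copies is not given in the sources used here. No gene was called among 12 of primitive endoderm, 7 of the two-cell-like state, 8 of feeder fibroblasts, 98 of ribosomal proteins or 44 histone genes. Of 11 neuroectoderm genes 2 were lower, of 20 targets of TGFb, BMP and NODAL 1 was higher and 2 were lower, and of 17 genes of KMT2 complexes Kmt2c alone was called. The shares over all tested genes were 2.67% higher and 1.39% lower.

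**Figure D3:**
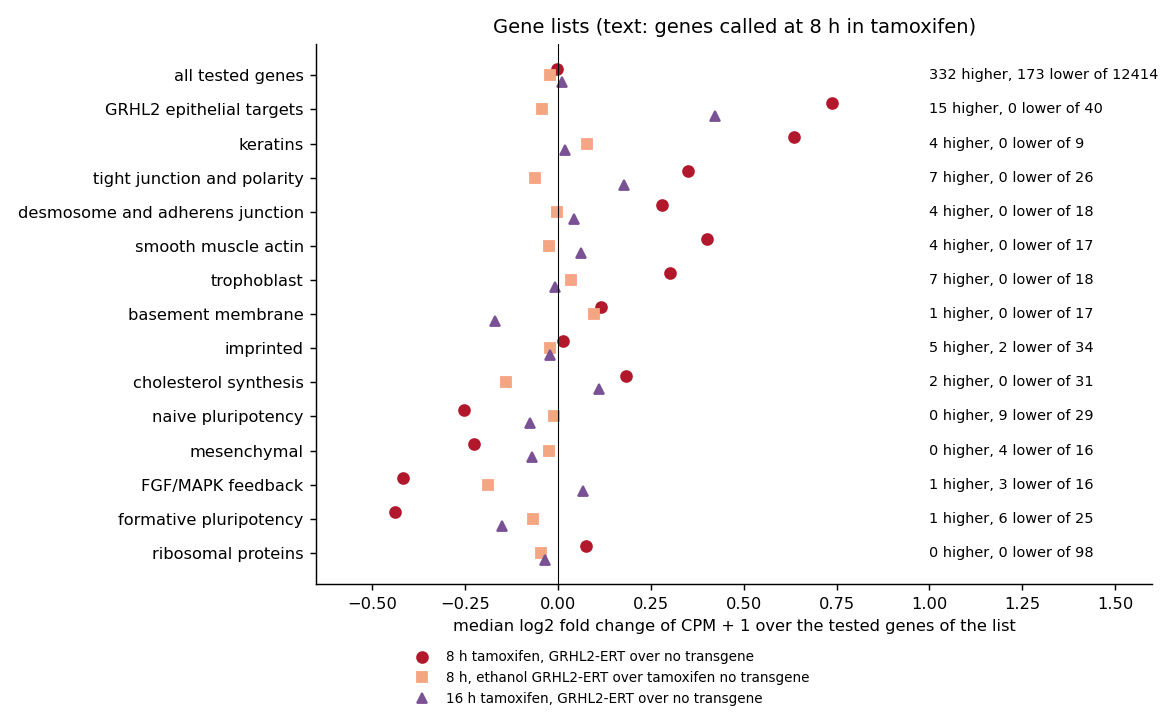
Median log2 fold change over the tested genes of 14 lists and over all tested genes, for GRHL2-ERT over transgene-free cells in tamoxifen at 8 h (circles), GRHL2-ERT ethanol over transgene-free tamoxifen cells at 8 h (squares) and the tamoxifen comparison at 16 h (triangles). The text at the right counts the genes called at 8 h in tamoxifen. The GRHL2 target median is 0.74 and the formative median -0.44 at 8 h in tamoxifen, while the squares of these lists lie at -0.04 and -0.07.

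Of 31 cholesterol synthesis genes Msmo1 and Stard4 were higher, of 25 glycolysis and hypoxia genes Pfkm and Pdk1 were lower, and of 22 serine synthesis and ATF4 genes Phgdh was higher. Msmo1, a sterol oxidase, averaged 101 ± 2.6 CPM with GRHL2-ERT and tamoxifen, 64.1 ± 3.1 CPM in ethanol and 71.8 ± 4.2 CPM without the transgene (limma adjusted p = 0.0055). The other 4 each lost their call without at least 1 library. Both groups received tamoxifen. Of 14 estrogen receptor targets Esr1 alone was called (list median 0.02), and of 16 genes of xenobiotic metabolism Cyp2s1 was higher and Gclm lower, both lost without single libraries. Over all tested genes 2.67% were higher and 1.39% lower. The small counts of this paragraph are therefore not read as results about these lists.

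Some differences were present in ethanol as well. In GRHL2-ERT ethanol cells against transgene-free tamoxifen cells at 8 h, 13 genes (0.105%) were called, 10 higher (0.0806%) and 3 lower (0.0242%), a comparison that shares the transgene-free libraries with the main one and in which treatment and line differ together. H19, a maternally expressed noncoding RNA (mm10 chromosome 7, 142575529 to 142578143), had 156, 192 and 233 CPM in GRHL2-ERT tamoxifen libraries and 200, 160 and 172 CPM in GRHL2-ERT ethanol libraries, against 64.1, 90.5 and 81.9 CPM in transgene-free libraries. Its log2 fold change over transgene-free cells was 1.28 with tamoxifen (limma adjusted p = 0.0006) and 1.17 in ethanol (adjusted p = 0.029). Meg3, another maternally expressed noncoding RNA, averaged 155 ± 16 CPM with GRHL2-ERT and tamoxifen and 257 ± 15 CPM in ethanol, against 89.1 ± 5.9 CPM without the transgene. Grb10, an imprinted adaptor of insulin signalling, had 9.02, 6.70 and 8.77 CPM with GRHL2-ERT and tamoxifen and 8.45, 13.8 and 8.27 CPM in ethanol, against 24.5, 21.7 and 19.5 CPM without the transgene. For H19 and Grb10 the tamoxifen and ethanol libraries of the GRHL2-ERT line overlapped, and both lay to 1 side of the transgene-free libraries. In ethanol cells against transgene-free cells Grb10 was at -1.07 and was not called (limma adjusted p = 0.054). Tamoxifen over ethanol in the GRHL2-ERT line at 8 h, which shares the tamoxifen libraries with the main comparison, called 362 genes higher (2.92%) and 253 lower (2.04%), H19 and Grb10 not among them. The imprinted list as a whole had 5 higher and 2 lower of 34 tested genes and a median of 0.01. Gja1, which encodes connexin 43, had the same layout, with 22.4, 16.8 and 10.3 CPM with GRHL2-ERT and tamoxifen and 11.4, 16.8 and 26.5 CPM in ethanol, against 40.4, 42.6 and 43.1 CPM without the transgene. Its call with tamoxifen (limma adjusted p = 0.042) was lost without any of 5 single libraries. In ethanol cells against transgene-free cells Gja1 was at -1.24 and was not called (limma adjusted p = 0.29).

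Of 6 tested Y-linked genes, 3 were called lower with GRHL2-ERT, and they are named here after their values were seen. Ddx3y, an RNA helicase gene (mm10 chromosome Y, 1260771 to 1286629), had 19.7, 22.5 and 22.5 CPM in GRHL2-ERT tamoxifen libraries and 20.6, 18.2 and 20.5 CPM in GRHL2-ERT ethanol libraries, against 44.5, 47.5 and 50.1 CPM in transgene-free libraries (log2 fold change -1.10 ± 0.13, limma adjusted p = 7e-07). Uty averaged 2.46 ± 0.27 CPM with GRHL2-ERT and tamoxifen and 2.30 ± 0.40 CPM in ethanol, against 5.09 ± 0.88 CPM without the transgene. Both GRHL2-ERT groups held about equal levels of each gene, under those of transgene-free cells. Eif2s3y was also called lower, at 0.486 ± 0.20 CPM with GRHL2-ERT and tamoxifen, against 2.08 ± 0.86 CPM without the transgene, and the calls of Uty and Eif2s3y were lost without single libraries. Uba1y did not pass (adjusted p = 0.20), and Kdm5d and Zfy1, which were at or near 0 in all groups, had log2 fold changes of -0.02 and -0.04. The median over the 6 tested genes of chromosome Y was -0.75, while the medians of all other chromosomes lay between -0.02 (chromosome 5) and 0.03 (chromosome 9).

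**Figure D4:**
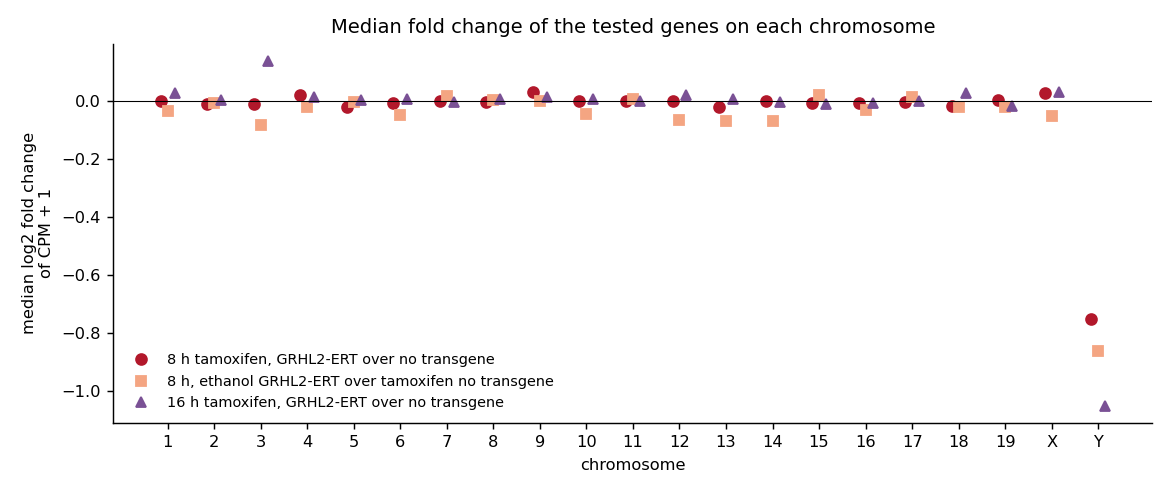
Median log2 fold change over the tested genes of each chromosome, for GRHL2-ERT over transgene-free cells in tamoxifen at 8 h (circles), GRHL2-ERT ethanol over transgene-free tamoxifen cells at 8 h (squares) and the tamoxifen comparison at 16 h (triangles). Chromosome Y lies at -0.75, -0.86 and -1.05 in these comparisons, and chromosome 3 at -0.01, -0.09 and 0.14.

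The genes called at 8 h were then read in comparisons made of other libraries, whose levels the 8 h calls had not used, although all libraries shared 1 estimate of the spread. The 16 h comparisons share libraries with one another. After 16 h of tamoxifen, 80 genes were higher (0.644%) and 41 lower (0.330%) in GRHL2-ERT cells than in transgene-free cells. Of the 332 genes higher at 8 h, 55 were called higher at 16 h, which is 16.6% of the 8 h list and 68.8% of the 16 h list, and 0 were called lower. Their median log2 fold change was 0.99 at 8 h and 0.37 at 16 h, against 0.01 for all tested genes at 16 h. Of the 173 genes lower at 8 h, 12 were called lower at 16 h, or 6.94% of the first list and 29.3% of the second, and their median was -0.78 at 8 h and -0.19 at 16 h. Tamoxifen over ethanol in the GRHL2-ERT line at 16 h, which holds the line constant, called 36 genes higher (0.290%) and 1 lower. Of these 36, 32 were among the 332 (88.9% of the shorter list and 9.64% of the longer), and the 332 had a median of 0.34 there. Of the 173, 0 were called lower in that comparison, and their median was -0.19. Of the 332, 3 (0.904%) were among the 9 genes (0.0725%) higher in GRHL2-ERT ethanol cells over transgene-free tamoxifen cells at 16 h. The median of the 332 was 0.02 there, against 0.03 for all tested genes. Of the 173, 3 (1.73%) were among the 12 genes (0.0967%) lower in that ethanol comparison, namely the Y-linked Ddx3y, Eif2s3y and Uty. The median of the 173 was -0.04. Between 61 and 78 genes were called in the 16 h tamoxifen comparison when any 1 of its libraries was left out, against 121 with all of them. Grhl2 averaged 77.5 ± 11 CPM in GRHL2-ERT tamoxifen cells and 1.78 ± 0.62 CPM in transgene-free cells.

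Double-KO cells with GRHL2-ERT (Kmt2cKO; Kmt2dKO;GRHL2-ERT) had 8 genes called higher (0.0644%) and 4 lower (0.0322%) after 8 h of tamoxifen against ethanol. Of the 8, 6 were among the 332 and, of the 4, 3 among the 173. The shared genes included Tmem54 (log2 fold change 1.80, limma adjusted p = 0.00041), Ppl (1.32, adjusted p = 0.032) and Cldn4 (0.92, adjusted p = 0.00074), and the lower Ncam1 (-0.74) and Lefty2 (-0.65). The median of the 332 was 0.18 there, against -0.07 for all tested genes. The 3 double-KO tamoxifen libraries stood apart from one another, with a mean correlation within their group of 0.938 to 0.965. That comparison gave 3145 calls without tamoxifen replicate 3 (877 higher and 2268 lower), 106 without tamoxifen replicate 1 (35 higher and 71 lower), 54 without ethanol replicate 3 (21 higher and 33 lower) and 4 without ethanol replicate 2 (all higher). Most calls were thus lower without any 1 of the first 3 of these libraries. The effect of KMT2D on the response was not tested.

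**Figure D5:**
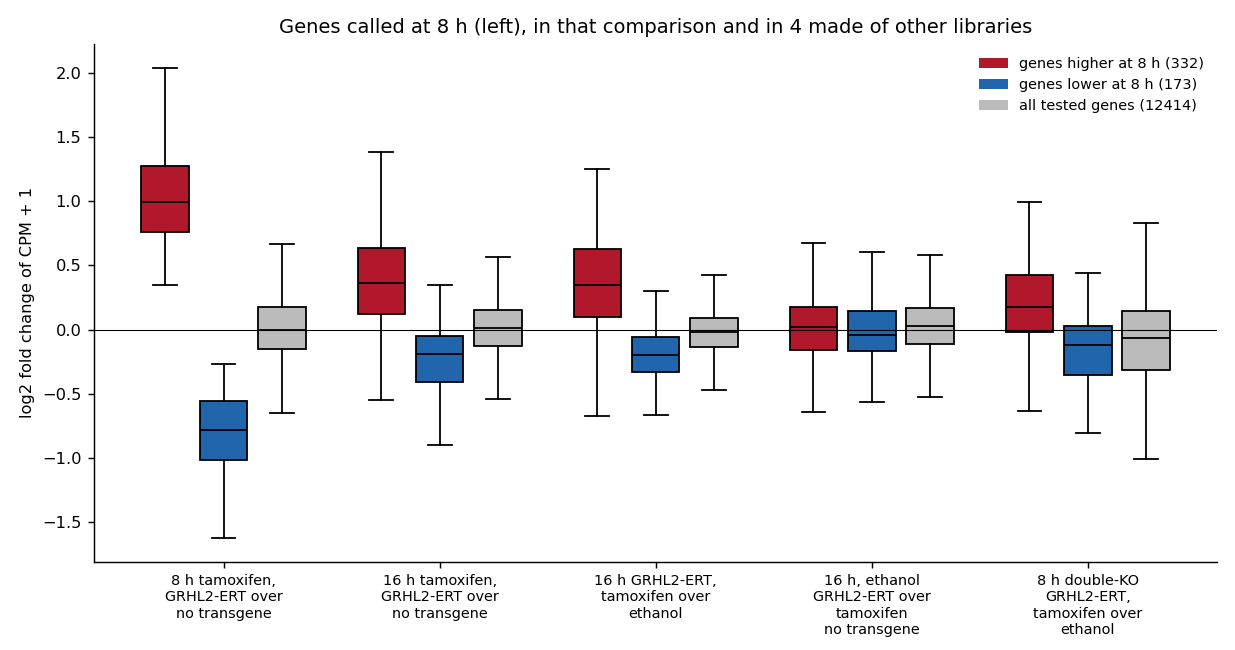
Box plots of log2 fold changes (median, quartiles, whiskers to 1.5 interquartile ranges) of the 332 genes higher and the 173 genes lower at 8 h, and of all 12414 tested genes. The leftmost comparison chose the genes and is shown for scale. In 16 h tamoxifen comparisons the higher genes have medians of 0.37 and 0.34, and in ethanol GRHL2-ERT over transgene-free cells 0.02.

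The change with time was tested directly. The log2 fold change of GRHL2-ERT over transgene-free cells in tamoxifen differed between 16 h and 8 h for 19 genes (0.153%). Of these, 12 had a smaller value at 16 h (0.0967%) and 7 a larger one (0.0564%). That balance was not stable: with the spread taken from the 12 libraries concerned, 60 genes had a smaller and 74 a larger value, and with array weights 109 had a smaller and 113 a larger one. Aldh3b2 had 9.40 ± 0.94 CPM with GRHL2-ERT and 0 CPM without at 8 h, and 1.86 ± 0.39 CPM with GRHL2-ERT and 0.0917 ± 0.10 CPM without at 16 h. Krt19 had 4.16 ± 0.049 CPM with GRHL2-ERT and tamoxifen, 2.49 ± 0.77 CPM with GRHL2-ERT and ethanol and 1.09 ± 0.38 CPM without the transgene at 8 h, and 0.782 ± 0.21 CPM with GRHL2-ERT and 1.44 ± 0.67 CPM without at 16 h. Utf1 and Apela, both lower with GRHL2-ERT at 8 h, reached log2 fold changes of -0.24 and -0.15 at 16 h, neither of which was called (limma adjusted p 0.63 and 0.85). The differences themselves were 1.18 ± 0.18 for Utf1 (adjusted p = 0.00126) and 1.12 ± 0.15 for Apela (adjusted p = 0.00061). With 1 library left out, between 4 and 14 genes were called in this test. Leaving out GRHL2-ERT replicate 2 or transgene-free replicate 1 of 8 h gave 4 each.

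The recognition sequence of grainyhead factors was looked up in promoters of the genes. RefSeq promoter windows of GRCm38.p6, from 250 bases before to 50 after the start of a gene, were matched by symbol for 251 of the 332 higher genes, 132 of the 173 lower genes and 9955 of all tested genes. The full palindrome AACCGGTT was in 1 of 343 promoters of higher genes (0.292%) and 0 of 196 of lower genes, against 33 of 12701 of all tested genes (0.260%). The looser AACCNGTT on either strand contains the palindrome. It was in 11 promoters of higher genes (3.21%) and in 7 of the 133 promoters of genes higher by at least 1 (5.26%). Of the promoters of lower genes 2 held it (1.02%), and of all 235 (1.85%). Of the 14 largest increases, 6 had a promoter in the table, and none of these held either motif. The windows of 2 called epithelial genes with the looser motif and of the only called gene with the palindrome are shown because they carry the match, which is in capitals. They were chosen after the search.
Cgn: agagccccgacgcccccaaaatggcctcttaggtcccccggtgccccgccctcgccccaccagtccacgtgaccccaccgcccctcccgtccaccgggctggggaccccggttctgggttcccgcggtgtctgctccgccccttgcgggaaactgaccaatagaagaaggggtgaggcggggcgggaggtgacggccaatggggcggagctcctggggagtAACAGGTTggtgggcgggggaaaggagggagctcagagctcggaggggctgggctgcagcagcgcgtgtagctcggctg
Rab25: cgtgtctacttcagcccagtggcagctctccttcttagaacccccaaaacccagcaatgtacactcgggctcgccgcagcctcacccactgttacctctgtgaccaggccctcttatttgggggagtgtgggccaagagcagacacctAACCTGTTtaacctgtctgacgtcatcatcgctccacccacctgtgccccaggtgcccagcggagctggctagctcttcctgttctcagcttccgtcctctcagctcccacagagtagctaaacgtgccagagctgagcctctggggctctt
Atp6v1d: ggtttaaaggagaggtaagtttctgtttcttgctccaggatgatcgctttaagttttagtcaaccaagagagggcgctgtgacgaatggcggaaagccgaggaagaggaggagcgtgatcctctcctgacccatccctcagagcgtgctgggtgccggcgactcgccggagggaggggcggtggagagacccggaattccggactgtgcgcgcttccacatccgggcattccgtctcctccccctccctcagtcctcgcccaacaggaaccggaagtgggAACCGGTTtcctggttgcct
The Cgn window is chr3:94786433-94786732 on the minus strand, the Rab25 window chr3:88548230-88548529 on the minus strand, and the Atp6v1d window chr12:78861589-78861888 on the minus strand. In Cgn the match lies 21 bases before the start of the gene and in Rab25 94 bases before it, while in Atp6v1d, which encodes a subunit of the vacuolar proton pump, it lies 30 bases after the start. Atp6v1d was higher by 0.49 ± 0.08 on the log2 scale with GRHL2-ERT (limma adjusted p = 0.00043), Cgn by 1.96 ± 0.35 and Rab25 by 1.02 ± 0.28. A match is a run of letters and was not shown to be a binding site.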

How the data were processed

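Gene expression was read by QuantSeq 3' end sequencing of bulk RNA from naive mouse embryonic stem cells, in 30 libraries of 10 groups with 3 each. The deposited table holds log2 values made by the authors, the log2 of CPM plus an offset that came out at 0.124871 CPM, for 12428 genes, each with at least 1 CPM in 6 or more libraries. The submitters' processing notes name mm10, Salmon and DESeq2 1.34.0, and how they were combined is not given in the sources used here. CPM was recovered from the deposited log2 values, and whole reads (within 0.05 reads, over values of up to 10 reads) came out for 94.9% to 98.1% of the low values of a library. The depths that follow were 8.86 to 22.0 M reads.

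A count model had been planned, but since the table is on a log2 scale, limma 3.58.1 in R 4.3.3 was fitted to log2(CPM + 1) with 1 mean per group over the 30 libraries (20 residual degrees of freedom, trended and robust variance). Genes with no group mean of at least 1 CPM were left out (14 genes), and p-values were adjusted by Benjamini-Hochberg over 12414 genes, with calls at 0.05. The fit was checked on simulated data. Fold changes on this scale understate the change of low genes. Counting intervals and floors of 3 reads cover counting error only. Gene positions are those of GENCODE vM21 on mm10.

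The members, gene lists and tests were chosen with earlier results of these data known, and gene lists overlap in members. Genes named are the 14 largest increases and decreases among called genes that reach a mean of 1 CPM in a group, do not overlap between groups and have a symbol that is not a clone or predicted name, up to 3 genes of each list by adjusted p under the same filters, and Grhl2, Esr1, Kmt2c, Kmt2d and Rn45s. Differences between times follow the same filters, 5 in each direction. Other called members of lists, Y-linked genes and the promoters shown were named after their values were seen. Alternatives were other pseudocounts, filters, scalings, weights and sets of libraries, a replicate block, and each library left out.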

Additional observations from a re-analysis of the deposited data

Results flagged for a closer look

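For 10 named genes, the log2 fold change of GRHL2-ERT over transgene-free cells in tamoxifen differed between 16 h and 8 h. The test was limma's, of the difference itself over all genes. Each difference is the log2 fold change at 16 h minus that at 8 h, and replicates of the 2 times are separate libraries. Trh differed by 1.79 (adjusted p = 0.019): it averaged 5.11 CPM with GRHL2-ERT and 23.6 CPM without at 8 h, and 19.9 CPM with GRHL2-ERT and 24.8 CPM without at 16 h. Utf1 differed by 1.18 and Apela by 1.12, and these calls held under each of 23 alternatives. Apela averaged 77.1 CPM with GRHL2-ERT and 187 CPM without at 8 h, and 200 CPM with GRHL2-ERT and 223 CPM without at 16 h. For Trh the call was lost under 5 of the 23.

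Meis2, a homeobox gene, differed by 1.09 (adjusted p = 0.048), with log2 fold changes of -0.35 at 8 h and 0.74 at 16 h, and Akap2 by 0.91 (adjusted p = 0.027), with -0.65 at 8 h and 0.26 at 16 h. These calls were lost under 12 and 10 of the 23 alternatives. For Meis2 at 16 h, GRHL2-ERT ethanol over transgene-free tamoxifen cells was 0.69 (adjusted p = 0.080) and tamoxifen over ethanol 0.05. For Akap2, GRHL2-ERT ethanol over transgene-free tamoxifen cells was -0.35 at 8 h and 0.49 at 16 h. Tamoxifen over ethanol was -0.30 at 8 h and -0.23 at 16 h for Akap2, and none of these values was called.

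Aldh3b2 differed by -1.99 (adjusted p = 0.00061), the call being lost under 2 alternatives. Krt19 differed by -1.74, Ppm1j by -1.62 and Il17re by -1.50, all at an adjusted p of 0.027, and these calls were lost under 11 of 23, 13 of 22 and 13 of 23 alternatives. Il17re had log2 fold changes of 2.38 at 8 h and 0.88 at 16 h, and Ppm1j, a phosphatase gene, of 1.37 at 8 h and -0.25 at 16 h. For Ppm1j at 8 h, GRHL2-ERT ethanol over transgene-free tamoxifen cells was 0.88 and tamoxifen over ethanol 0.49, neither of them called. Zscan4c, a gene of the two-cell-like state with near-identical copies, differed by -1.65: it averaged 0.818 CPM with GRHL2-ERT and 0.677 CPM without at 8 h, and 5.52 CPM with GRHL2-ERT and 17.6 CPM without at 16 h. Its call was lost under 9 of the 23. At 16 h GRHL2-ERT ethanol cells had 6.06 CPM of Zscan4c, and differed from transgene-free tamoxifen cells by -1.40 (adjusted p = 0.0028), while tamoxifen over ethanol was -0.12.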

How the results depend on the processing

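The 63 named genes called at 8 h were run under 10 alternatives each (2 pseudocounts, median-of-ratios scaling, the replicate block over all libraries, and each of 6 libraries left out). Of these 630 values 580 kept their call, and 48 genes kept it under all 10. None changed sign, but these genes were chosen not to overlap between the groups. Their sign could therefore change under median-of-ratios scaling only. Of 81 called genes of the lists, chromosome Y and the promoters, 37 lost their call at least once. Median-of-ratios scaling ended the calls of Klf4, Zfp42, F11r, Zrsr1 and Gclm.

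Counts of calls moved with the alternatives as follows, and the cause was not tested. At 8 h, the 505 calls became 977 when the spread came from the compared libraries, 1254 under array weights, 206 when a log2 change of 1 or more was also asked, 817 without the double-KO tamoxifen libraries of 8 h (chosen after seeing the data) and 295 to 351 with 1 library left out. In the same order, the 121 calls of the 16 h tamoxifen comparison became 226, 625, 49, 225 and 61 to 78, and 76 with voom weights. The 37 of tamoxifen over ethanol at 16 h became 148, 242, 24, 65 and 22 to 27, and 21 with voom weights. The 21 of ethanol GRHL2-ERT cells over transgene-free cells at 16 h became 108, 274, 12, 67 and 6 to 13, and 33 with a pseudocount of 5 CPM. Its split of 9 higher and 12 lower was 70 and 38 from the compared libraries and 3 and 17 under median-of-ratios scaling. The 19 differences between times became 134 from their libraries alone, 222 with array weights, 75 without the double-KO libraries, 4 to 14 with 1 left out and 63 with a pseudocount of 5 CPM. The 12 calls in double-KO cells in limma, with 2520 at an unadjusted p under 0.05, became 0 from their libraries alone, 1 with array weights, 5 when a log2 change of 1 or more was also asked, 36 with a pseudocount of 5 CPM, 20 with a minimum of 5 CPM and 4 to 3145 with 1 left out. Their split of 8 higher and 4 lower was 11 and 2 under median-of-ratios scaling.

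Same-numbered libraries of the 8 h groups had correlations of deviations of 0.0328, -0.037 and 0.112, and differently numbered ones of -0.151 to 0.125. In the 16 h tamoxifen groups same-numbered libraries had 0.0992, -0.0784 and 0.0754. These values cannot show whether libraries were handled in pairs, which the labels do not give. With the replicate block over all libraries 471 genes were called at 8 h, and Gja1, Phgdh, Gclm, F11r and Mcts2 were not. With the block and the libraries of the contrast alone, counts were 1060 at 8 h, 369 at 16 h, 145 for the difference between times, 162 for tamoxifen over ethanol, 89 for ethanol over transgene-free cells and 0 in double-KO cells.

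With a pseudocount of 5 CPM the median of the GRHL2 targets was 0.42 and of the keratins 0.19, and chromosome Y was at -0.28, against -1.07 with 0.1 CPM. The median of the FGF and MAPK list was -0.12 with 5 CPM and -0.92 with 0.1 CPM. Genes near the floor of 3 reads are limited by depth.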

Other observations

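Genes of chromosome 3 lay higher in Kmt2c-KO GRHL2-ERT cells than in transgene-free cells at 16 h and not at 8 h. The median log2 fold change over 575 tested genes of this chromosome was 0.14 for GRHL2-ERT over transgene-free cells in tamoxifen at 16 h and 0.15 for GRHL2-ERT ethanol over transgene-free tamoxifen cells at 16 h, against -0.01 for the tamoxifen and -0.09 for the ethanol comparison at 8 h. By library, the median deviation of the chromosome was 0.110 to 0.149 in GRHL2-ERT tamoxifen cells and 0.114 to 0.139 in GRHL2-ERT ethanol cells at 16 h, against -0.051 to 0.018 in transgene-free cells. Double-KO GRHL2-ERT libraries at 16 h lay between, at 0.0029 to 0.0878 in tamoxifen and 0.0466 to 0.0749 in ethanol, and 1 of the tamoxifen libraries was within the transgene-free range. No test was made.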
